A study of Homo sapiens with 6 samples.

Results

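N-glycans are assembled and trimmed by a set of 45 enzymes and subunits, described here in A549 cells that carried a guide against UXS1. The 45 genes were listed by name and role, with earlier results of these data known, and all 45 were found among the 28317 genes of the deposited table. They were split by role into 20 genes of dolichol-linked assembly, 9 oligosaccharyltransferase subunits, 6 genes of trimming in the endoplasmic reticulum (ER) and 10 genes of trimming and branching in the Golgi.

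A549 is an established human lung adenocarcinoma line. In the UXS1 KO group, cells were infected with a lentiCRISPR v2 virus, which delivers Cas9 and 1 guide RNA against UXS1. The CTRL group received the same vector with a guide that targets no gene. Both groups had 5 days of puromycin and were harvested on day 7 after infection, and no isolation of single clones is described. Each group held 3 libraries, called biological triplicates in the series design, and p-values measure only the spread among these cultures.

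An N-glycan begins as a sugar chain built on dolichol phosphate, a lipid of the ER membrane, from UDP-GlcNAc, GDP-mannose and dolichol-bound mannose and glucose. Oligosaccharyltransferase moves the finished chain onto asparagine residues of new proteins. Glucosidases and mannosidases then trim it in the ER while the protein folds, and Golgi enzymes trim it further and add branches. UXS1 makes UDP-xylose, which is not among the donors used in human N-glycan synthesis.

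Libraries held 21121489 to 22160405 counts, and libraries of different groups differed by 26.2 to 28.8 chi-square per degree of freedom, against 1.60 to 3.39 within a group. UXS1 transcript stood at 17.3, 16.9 and 17.2 TPM (transcript level scaled by gene length and library total) in the UXS1 KO libraries and at 31.0, 31.7 and 32.5 TPM in the control libraries. Its level in CPM (counts scaled to the library total, for gene levels that of the tested genes with TMM factors) was 54.1% of control (log2 fold change -0.89, SE 0.0475, edgeR adjusted p = 2.2e-14). All 5 epithelial markers were present, and their sum, mostly KRT8 and KRT18, was 8573 to 8822 TPM in UXS1 KO and 8167 to 8804 TPM in control libraries. The other 3 were higher in UXS1 KO with no overlap. CDH1 was at 52.5 to 54.6 TPM in UXS1 KO and 27.7 to 31.0 TPM in control, KRT19 at 281 to 297 TPM in UXS1 KO and 193 to 204 TPM in control, and EPCAM at 9.19 to 10.2 TPM in UXS1 KO and 5.68 to 6.59 TPM in control libraries. The 3 alveolar type 2 markers NKX2-1, SFTPC and SFTPB stayed under 1 TPM in every library, so the cells lacked the defining markers of that lung cell type. Of the other marker lists, 4 of 4 endothelial genes and 2 of 4 fibroblast genes were under 1 TPM. The fibroblast gene COL1A1 overlapped, at 5.25 to 6.4 TPM in UXS1 KO and 5.31 to 5.64 TPM in control libraries. LUM was at 0.848 to 1.72 TPM in UXS1 KO and 0.606 to 0.809 TPM in control libraries, with no overlap. COL3A1, under 1 TPM, was also higher in UXS1 KO with no overlap. The 3 leukocyte markers analysed summed to 6.73 to 7.29 TPM in UXS1 KO and 1.61 to 2.11 TPM in control libraries, almost all of it CD79A, with CD3E at 0 counts. The part of these marker differences in the results below was not tested.

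Most N-glycan enzymes that changed were slightly higher in UXS1 KO cells. Of the 45 members 44 passed the filter on low counts, and 26 of these rose and 1 fell at an edgeR adjusted p under 0.05. Log2 fold changes are given as UXS1 KO over control, so positive values are higher in UXS1 KO. Among all 15757 genes tested, 24.5% rose and 23.7% fell by the same rule. The share of members that rose was 59.1%, and their median log2 fold change was 0.11, against -0.003 over all genes tested. Of these 27 changes 21 were below 1.2-fold, and the widest were those of MPI and PMM2. In TPM the 3 UXS1 KO libraries lay above the 3 control libraries for 23 tested members and below them for 2, while 26.8% and 26.4% of all genes tested did so.

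**Figure D1:**
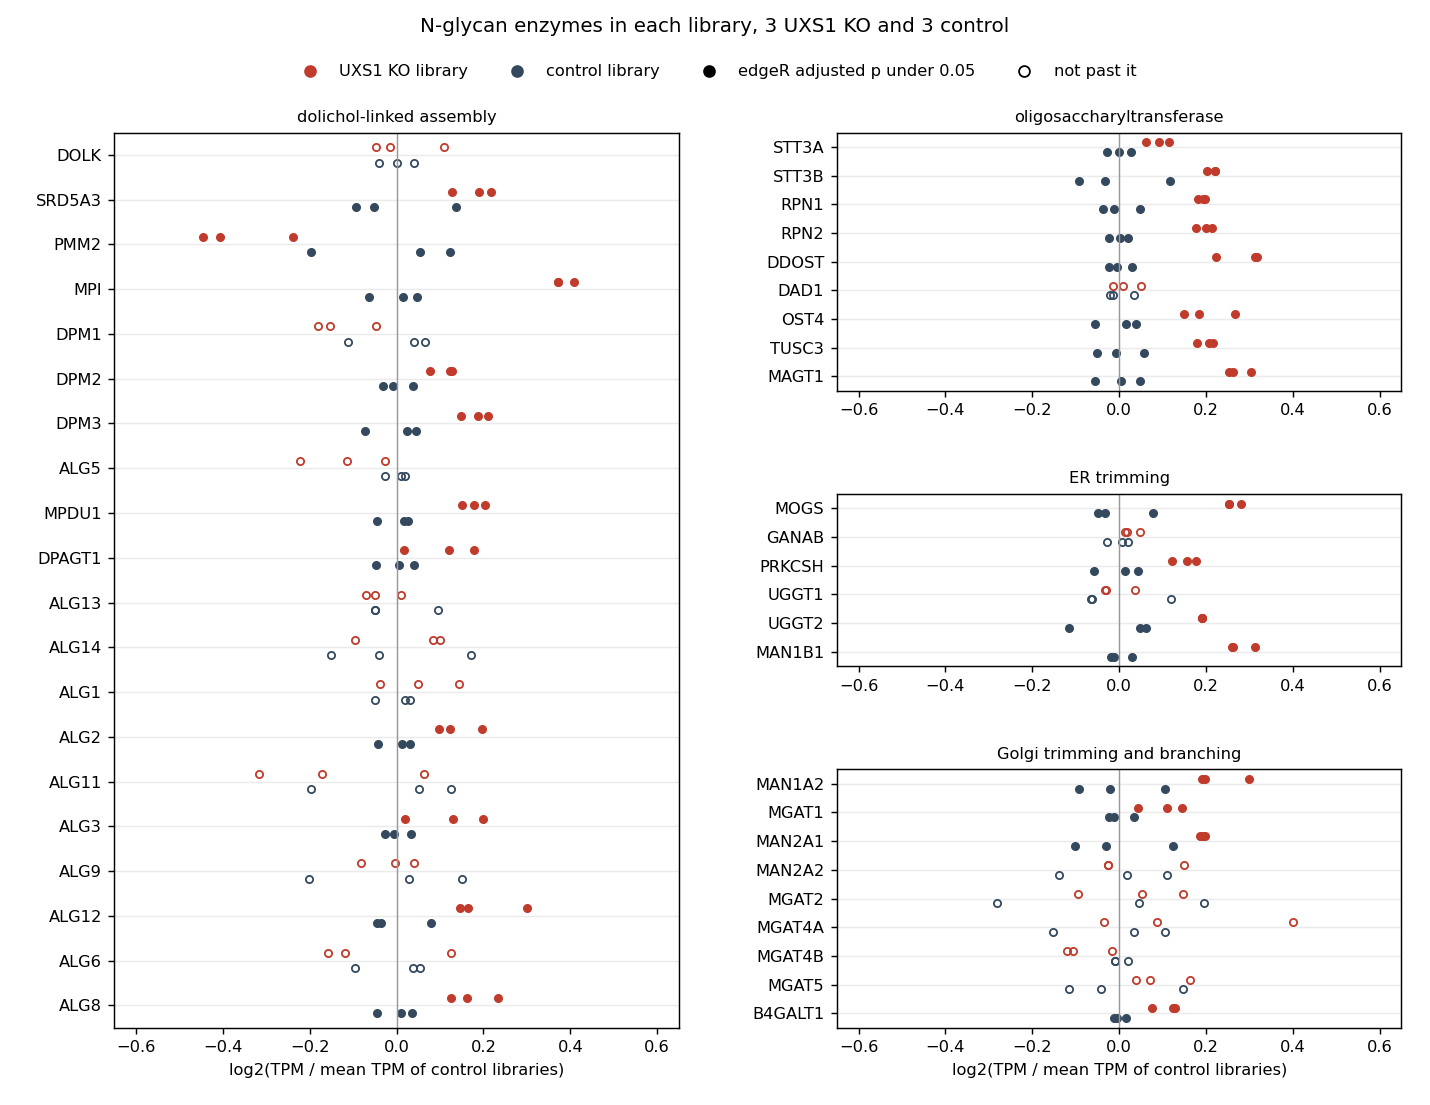
Level of each tested member in each library, as log2 of TPM over the mean of the control libraries, with UXS1 KO libraries above control libraries in each row. Filled points mark members with an edgeR adjusted p under 0.05. For 8 of the 9 oligosaccharyltransferase subunits the UXS1 KO points lie to the right of all control points, as for 26.8% of all genes tested.

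The genes of dolichol-linked assembly were the most mixed of the 4 classes. Of 20 tested members 10 rose, 1 fell and 9 did not pass the test, with a median log2 fold change of 0.08. Summed over the class, transcript levels were 1141, 1132 and 1154 TPM in UXS1 KO and 1056, 1079.8 and 1063 TPM in control libraries. The groups did not overlap, and the mean was 7.14% higher in UXS1 KO.

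The widest changes of the class lay at the entry of mannose, in consecutive enzymes that moved in opposite directions. MPI (ENSG00000178802.18), the isomerase that turns fructose-6-phosphate into mannose-6-phosphate, lies on GRCh38 chromosome 15, positions 74890005 to 74902219, plus strand. Its transcript stood at 26.9, 26.9 and 27.6 TPM in UXS1 KO and at 21.5, 21.0 and 19.9 TPM in control libraries. Every UXS1 KO library was above every control library, a log2 rise of 0.38 (SE 0.0438, edgeR adjusted p = 5e-08). PMM2 (ENSG00000140650.12, chromosome 16, positions 8788823 to 8849331, plus strand) encodes the mutase that converts mannose-6-phosphate to mannose-1-phosphate. It stood at 10.2, 9.07 and 8.84 TPM in UXS1 KO and at 12.5, 13.1 and 10.5 TPM in control libraries. The groups were close, with the highest UXS1 KO library just under the lowest control library, with a log2 change of -0.36 (SE 0.076, edgeR adjusted p = 0.00028). PMM2 shares 16% of its exonic length with AC022167.2 on the same strand and 5.9% with TMEM186 on the opposite strand. Their log2 fold changes were 0.02 (adjusted p = 0.96) and 0.12 (adjusted p = 0.31). PMM2 is also uncertain, since 14.6% of its 50-base stretches occur in transcripts of other genes. MPI shares 24.6% with FAM219B on the opposite strand, which had a log2 fold change of 0.04 (adjusted p = 0.71).

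Dolichol and its charged forms are supplied by a second group of genes. SRD5A3, the reductase that makes dolichol, averaged 16.1 ± 0.507 TPM in UXS1 KO and 14.2 ± 1.21 TPM in control (SD, n = 3 each) and rose by 0.18 (edgeR adjusted p = 0.044), with libraries that overlapped. DOLK, the dolichol kinase, was at 99.2, 97.0 and 108 TPM in UXS1 KO and 100.2, 103 and 97.4 TPM in control libraries, with a log2 difference of 0.02 (adjusted p = 0.74). ALG5, which makes dolichol phosphate glucose, did not pass the test (-0.12, adjusted p = 0.17).

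The subunits of dolichol phosphate mannose synthase did not share a call. DPM3, the small subunit that anchors the enzyme, stood at 183, 188 and 191 TPM in UXS1 KO and at 157, 170.4 and 168 TPM in control libraries, a rise of 0.18 (SE 0.0568, edgeR adjusted p = 0.009). DPM2 rose by 0.11 (adjusted p = 0.036). DPM1, the catalytic subunit, was at 102, 112 and 104 TPM in UXS1 KO and at 121, 119 and 107 TPM in control libraries, with a log2 difference of -0.12 (adjusted p = 0.083). The DPM1 groups overlapped, while those of DPM3 and DPM2 did not. MPDU1 is needed for the use of dolichol-bound mannose and glucose. It stood at 161, 158 and 164 TPM in UXS1 KO and at 138, 145 and 144 TPM in control libraries. The rise was 0.18 (adjusted p = 0.00039). MPDU1 shares 11.1% of its exonic length with opposite-strand genes, which include SOX15 (0.50, adjusted p = 0.023) and FXR2 (-0.11, adjusted p = 0.028).

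Transferases that start and lengthen the chain gave small rises or no call. DPAGT1, which places the first GlcNAc phosphate on dolichol phosphate, rose by 0.11 (edgeR adjusted p = 0.038). ALG13, the catalytic subunit of the next transferase, stood at 14, 13.8 and 14.6 TPM in UXS1 KO and at 15.5, 14 and 14 TPM in control libraries. Its membrane partner ALG14 stood at 3.78, 4.28 and 4.33 TPM in UXS1 KO and at 4.55, 3.93 and 3.64 TPM in control libraries, and neither gene passed the test (adjusted p = 0.63 and 0.78).
Of the mannosyltransferases, ALG2 rose by 0.14 (adjusted p = 0.017), ALG3 by 0.12 (adjusted p = 0.024) and ALG12 by 0.21 (adjusted p = 0.011). ALG1 (0.06, adjusted p = 0.41), ALG11 (-0.13, adjusted p = 0.48) and ALG9 (-0.02, adjusted p = 0.93) did not pass. ALG1 is uncertain, since 27.5% of its 50-base stretches also occur in transcripts of other genes.

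The glucosyltransferases that cap the chain differed in level. ALG8 stood at 125, 116 and 119 TPM in UXS1 KO and at 103, 107 and 109 TPM in control libraries, with no overlap (log2 fold change 0.18, SE 0.0419, edgeR adjusted p = 0.001). ALG6, which adds the first glucose, was far lower, at 8.29, 10.1 and 8.53 TPM in UXS1 KO and 9.50, 8.66 and 9.61 TPM in control libraries (-0.04, adjusted p = 0.74).

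Under DESeq2 the class held 3 rises, those of MPI, MPDU1 and ALG8, where 18.4% of all genes tested rose. The calls of SRD5A3 (adjusted p = 0.18), DPM2 (0.142), DPM3 (0.0595), DPAGT1 (0.135), ALG2 (0.0819), ALG3 (0.0766) and ALG12 (0.0699) were lost. Without 1 library some of these edgeR calls were also lost. Without CTRL replicate 1 the class held 4 rises, where 22.6% of all genes tested rose. In that fit SRD5A3 (adjusted p = 0.214), DPM2 (0.101), DPM3 (0.0595), DPAGT1 (0.0924), ALG3 (0.106) and ALG12 (0.0535) were not called. Without UXS1 KO replicate 1 the calls of DPM2 (0.117), DPAGT1 (0.247) and ALG3 (0.209) were lost, and without UXS1 KO replicate 2 those of SRD5A3 (0.117), DPM2 (0.147) and ALG2 (0.139). Without UXS1 KO replicate 3 the calls of SRD5A3 (0.102), DPAGT1 (0.0699) and ALG12 (0.0672) were lost, without CTRL replicate 2 those of DPM2 (0.0643) and DPAGT1 (0.0872), and without CTRL replicate 3 those of SRD5A3 (0.125) and ALG2 (0.0697). DPM1 was called lower without UXS1 KO replicate 2 (0.0288) or CTRL replicate 3 (0.0161). In edgeR with no filter the calls of DPM2 (0.0757) and DPAGT1 (0.0657) were lost. All 3 limma fits of log2 TPM lost SRD5A3 (0.0702 to 0.128), DPAGT1 (0.121 to 0.182) and ALG3 (0.0907 to 0.157). The limma fit with no filter also lost ALG12 (0.065) and PMM2 (0.0562).

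ALG12 is shown with its promoter because it was the 1 member of 39 with a RefSeq promoter window that held an ER stress response element (ERSE), the motif that ATF6 and XBP1 act through. The element was searched as CCAAT, any 9 bases and CCACG on either strand, from 250 bases before to 50 after each RefSeq start (build GRCh38.p14). It was in 1 of 63 windows of members and in 27 of 35116 windows of all genes (0.0769%). The gene CRELD2, which encodes an ER-resident protein, starts on the other strand beside ALG12, and its window holds the same element. The CRELD2 window (chr22:49918384-49918683, plus strand) is nearly the reverse complement of that of ALG12 (chr22:49918389-49918688, minus strand), so the ALG12 window is printed, with that of CALR, the ER chaperone calreticulin (chr19:12938359-12938658, plus strand), as a second gene of the pathway with the element. Capitals mark the element, which reads as its reverse complement in CALR, and each sequence runs 5′ to 3′ on the gene's own strand.
ALG12: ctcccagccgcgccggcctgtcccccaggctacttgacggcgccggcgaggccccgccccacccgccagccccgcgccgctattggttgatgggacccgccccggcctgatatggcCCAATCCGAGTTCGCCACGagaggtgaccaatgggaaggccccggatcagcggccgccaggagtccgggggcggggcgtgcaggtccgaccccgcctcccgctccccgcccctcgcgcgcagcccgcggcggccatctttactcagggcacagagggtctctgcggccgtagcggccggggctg
CALR: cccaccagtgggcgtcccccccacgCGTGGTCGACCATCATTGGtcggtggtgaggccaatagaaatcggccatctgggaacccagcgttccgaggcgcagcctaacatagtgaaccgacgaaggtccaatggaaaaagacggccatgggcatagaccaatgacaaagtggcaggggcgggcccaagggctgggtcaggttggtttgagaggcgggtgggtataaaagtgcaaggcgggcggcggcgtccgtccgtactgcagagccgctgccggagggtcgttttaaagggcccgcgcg
The element starts 134 bases before the ALG12 start, 80 before that of CRELD2 and 225 before that of CALR. The shorter elements ERSE-II (ATTGG, 1 base, CCACG) and UPRE (TGACGTGG) were in no window of a member, and in 0.0541% and 0.729% of all windows. Both genes of the shared window were higher in UXS1 KO. ALG12 stood at 15.2, 15.4 and 16.9 TPM in UXS1 KO and at 13.3, 14.5 and 13.4 TPM in control libraries. CRELD2 stood at 22.9, 22.9 and 21.2 TPM in UXS1 KO and at 19.8, 17.9 and 19.3 TPM in control libraries (log2 fold change 0.24, SE 0.0574, edgeR adjusted p = 0.0012). Neither gene's groups overlapped. CRELD2 and a non-coding gene cover 42.1% of the exonic length of ALG12 on the opposite strand, and no source used here says that reads were counted by strand, so the reads of ALG12 and CRELD2 cannot be told apart there. CALR and CANX, whose windows also hold the element, had log2 differences of 0.28 (adjusted p = 1.7e-06) and 0.02 (adjusted p = 0.65). They were named after their values were seen.

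Oligosaccharyltransferase subunits were higher in nearly all cases. Of 9 subunits 8 rose (88.9%) and none fell, against 24.5% and 23.7% of all genes tested. The median log2 fold change of the subunits was 0.20. Summed over the 9 genes, the level was 3371, 3372 and 3443 TPM in UXS1 KO and 3089.9, 3040.2 and 2985 TPM in control libraries, 11.7% higher in the mean, with no overlap. Human cells hold a form of the complex built around STT3A, which works on chains still entering the ER, and a form built around STT3B, which can act later.

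STT3B stood at 297, 293 and 297 TPM in UXS1 KO and at 276, 239 and 249 TPM in control libraries. The control libraries were the more variable group, and the log2 rise was 0.22 (SE 0.0381, edgeR adjusted p = 3.2e-05). STT3A stood at 87.9, 84.8 and 86.5 TPM in UXS1 KO and at 82.8, 79.7 and 81.2 TPM in control libraries, a rise of 0.09 (SE 0.0353, adjusted p = 0.034). The STT3A call was lost without UXS1 KO replicate 1 (0.143), UXS1 KO replicate 2 (0.0842), CTRL replicate 2 (0.0518) or CTRL replicate 3 (0.0662). It was also lost under DESeq2 (0.0724), in edgeR with no filter (0.0818) and in all 3 limma fits of log2 TPM (0.0548 to 0.0574). The oxidoreductase subunits of the STT3B form both rose. MAGT1 (ENSG00000102158.19, chromosome X, positions 77826364 to 77895593, minus strand) stood at 98.5, 99.0 and 102 TPM in UXS1 KO and at 85.4, 82.9 and 79.5 TPM in control libraries (0.27, SE 0.038, adjusted p = 1.1e-06). TUSC3 stood at 68.8, 68.4 and 67.1 TPM in UXS1 KO and at 61.6, 57.2 and 58.9 TPM in control libraries (0.20, adjusted p = 0.00011).

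Shared subunits rose by similar amounts, apart from DAD1. DDOST (ENSG00000244038.10, chromosome 1, positions 20651767 to 20661544, minus strand) stood at 393, 394 and 369 TPM in UXS1 KO and at 315, 323 and 311 TPM in control libraries, the largest rise of the class (0.29, SE 0.0395, edgeR adjusted p = 1e-06). It shares 15.7% of its exonic length with PINK1-AS on the same strand, which had a log2 fold change of 0.44 (adjusted p = 0.0056) at 3.92 TPM in UXS1 KO and 2.89 TPM in control. The ribophorins RPN1 and RPN2 had non-overlapping groups. RPN1 stood at 264, 265 and 262 TPM in UXS1 KO and at 239, 225 and 229 TPM in control libraries (0.19, adjusted p = 4.1e-05). RPN2 stood at 575, 585 and 590.3 TPM in UXS1 KO and at 516, 501 and 509.7 TPM in control libraries (0.20, adjusted p = 1.8e-05). OST4, the smallest subunit, averaged 764 ± 32.1 TPM in UXS1 KO and 665 ± 22.6 TPM in control (SD, n = 3 each) and rose by 0.20 (adjusted p = 0.00013). DAD1, the most abundant transcript of all 45 members, stood at 831, 845 and 869 TPM in UXS1 KO and at 831, 860.1 and 827 TPM in control libraries. Its groups overlapped (0.02, SE 0.0376, adjusted p = 0.74).

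**Figure D2:**
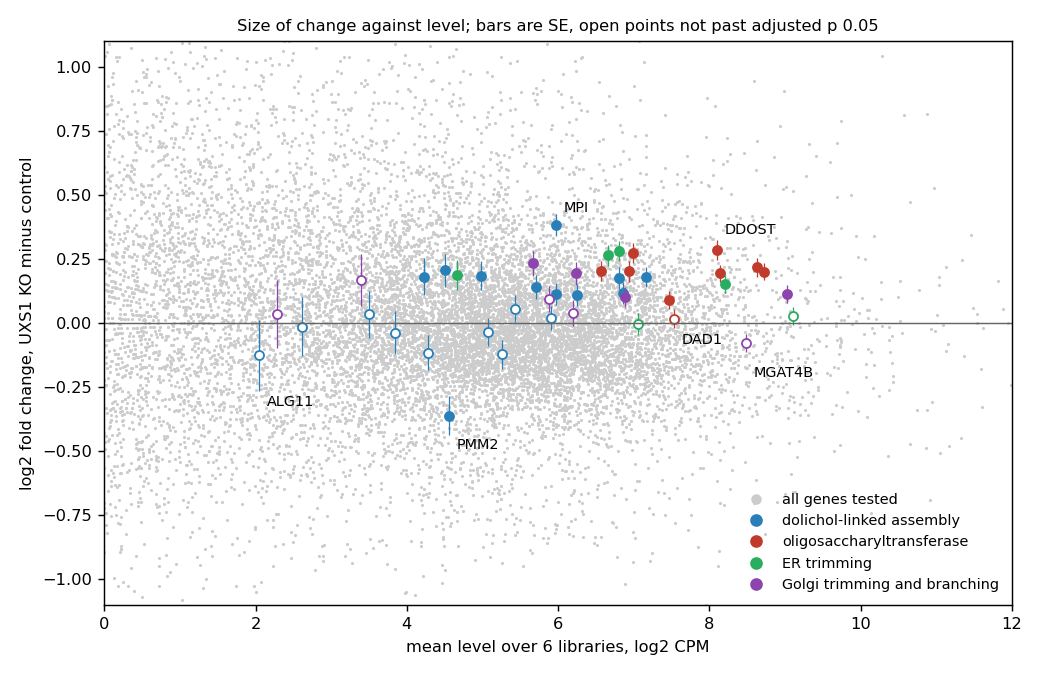
Log2 fold change, UXS1 KO minus control, against mean level in log2 CPM for the 44 tested members (coloured by class, bars SE, open points not past an edgeR adjusted p of 0.05) and all genes tested (grey). Of all genes 2140 lie outside the axes, and the members lie between -0.36 (PMM2) and 0.38 (MPI).

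Of the 6 ER trimming genes 4 rose (66.7%) and none fell, against 24.5% and 23.7% of all genes tested. The median change of the 6 trimming genes was 0.17 (log2). Their summed level was 819, 797 and 806 TPM in UXS1 KO and 759, 753 and 742 TPM in control libraries, 7.45% higher in the mean. MAN1B1 (ENSG00000177239.15, chromosome 9, positions 137086927 to 137109187, plus strand), the ER mannosidase that removes the first mannose, stood at 50.8, 50.9 and 52.7 TPM in UXS1 KO and at 41.9, 42.1 and 43.3 TPM in control libraries. This was the largest rise of the class, with a wide gap between the groups (0.28, SE 0.0383, edgeR adjusted p = 8.2e-07). MOGS (ENSG00000115275.14, chromosome 2, positions 74461057 to 74465410, minus strand), the glucosidase that removes the outermost glucose, stood at 108, 106 and 106 TPM in UXS1 KO and at 86.0, 87.0 and 93.9 TPM in control libraries (0.26, SE 0.042, adjusted p = 8.9e-06).

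The subunits of glucosidase II, which removes the inner glucoses, were not called alike. PRKCSH, its regulatory subunit, stood at 214, 206 and 211 TPM in UXS1 KO and at 191, 195 and 182 TPM in control libraries (0.15, edgeR adjusted p = 0.0011). GANAB, its catalytic subunit, stood at 392, 383 and 384 TPM in UXS1 KO and at 385, 381 and 372 TPM in control libraries, with overlapping groups (0.03, adjusted p = 0.52).
UGGT1 puts glucose back on glycoproteins that are not folded. It stood at 42.1, 40.1 and 40.2 TPM in UXS1 KO and at 44.6, 39.3 and 39.2 TPM in control libraries (-0.0044, adjusted p = 0.94). Its less abundant paralog UGGT2 was at 11.6 TPM in each UXS1 KO library and at 10.5, 9.37 and 10.6 TPM in control libraries (0.19, adjusted p = 0.011). The UGGT2 call was lost under DESeq2 (0.0763), in all 3 limma fits of log2 TPM (0.0559 to 0.103) and without CTRL replicate 2, the lowest library (0.0726).

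In the Golgi class 9 of 10 genes were tested, 4 rose (44.4%) and none fell, against 24.5% and 23.7% of all genes tested. The median log2 fold change of the class was 0.10. Summed levels were 746, 727 and 766 TPM in UXS1 KO and 724, 709 and 725 TPM in control libraries, 3.73% higher in the mean, and the lowest UXS1 KO library was close to the highest control library. The sum averaged 746 TPM in UXS1 KO and 719 TPM in control. B4GALT1 averaged 383 TPM in UXS1 KO and 355 TPM in control, so the sum rose by about as much as this 1 gene. MGAT4B averaged 221 TPM in UXS1 KO and 234 TPM in control. Golgi mannosidases act first. MAN1A2 (ENSG00000198162.12, chromosome 1, positions 117367449 to 117528872, plus strand) stood at 19.2, 19.3 and 20.7 TPM in UXS1 KO and at 18.1, 15.8 and 16.6 TPM in control libraries (0.23, SE 0.0484, edgeR adjusted p = 0.00025). Its paralog MAN1A1 was the 1 member below the filter, with 8, 5 and 7 counts in UXS1 KO and 6, 2 and 2 counts in control libraries, so MAN1A2 carried almost all of the measured transcript of the pair.
MAN2A1 and MAN2A2 encode alpha-mannosidases that act after MGAT1. MAN2A1 stood at 23.8, 23.7 and 23.9 TPM in UXS1 KO and at 22.7, 19.4 and 20.4 TPM in control libraries (0.20, SE 0.0447, adjusted p = 0.00073). The MAN2A1 call was lost in the limma fit of log2 TPM with no filter (0.0724). MAN2A2, at a similar level, stood at 25.4, 25.4 and 28.7 TPM in UXS1 KO and at 26.2, 23.5 and 27.9 TPM in control libraries (0.04, adjusted p = 0.54).

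Of the transferases that add or extend branches, MGAT1 and B4GALT1 were called higher and the others were not called. MGAT1, which starts the first branch, stood at 38.0, 35.4 and 37.1 TPM in UXS1 KO and at 35.2, 34.1 and 33.8 TPM in control libraries. Its groups lay close without overlap and it rose by 0.10 (edgeR adjusted p = 0.030). The MGAT1 call was lost without UXS1 KO replicate 1 (0.167), UXS1 KO replicate 3 (0.0547) or CTRL replicate 3 (0.094). It was also lost under DESeq2 (0.0885), in edgeR with no filter (0.0642) and in all 3 limma fits of log2 TPM (0.0976 to 0.12). MGAT2, which starts the second branch, had a log2 difference of 0.04 with a wide SE of 0.134 (adjusted p = 0.85). MGAT4A and MGAT4B add a further branch. MGAT4A was at 4.72, 3.49 and 3.80 TPM in UXS1 KO and 3.85, 3.22 and 3.66 TPM in control libraries (0.17, adjusted p = 0.18), while MGAT4B was at 217, 215 and 231 TPM in UXS1 KO and 232, 232 and 237 TPM in control libraries (-0.08, adjusted p = 0.068). Every UXS1 KO library was below every control library for MGAT4B, by a narrow margin. MGAT4B was called lower without UXS1 KO replicate 3 (0.0453) or CTRL replicate 1 (0.0258). MGAT5, whose branch can carry long galactose-containing chains, averaged 24.2 ± 1.07 TPM in UXS1 KO and 22.8 ± 2.18 TPM in control (0.09, adjusted p = 0.14), and it was called higher without CTRL replicate 1 (0.0128). B4GALT1, the galactosyltransferase that extends the branches and the most abundant Golgi member, stood at 387, 374 and 388 TPM in UXS1 KO and at 354, 352 and 359 TPM in control libraries. Its groups did not overlap (0.11, SE 0.0337, adjusted p = 0.007).

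**Figure D3:**
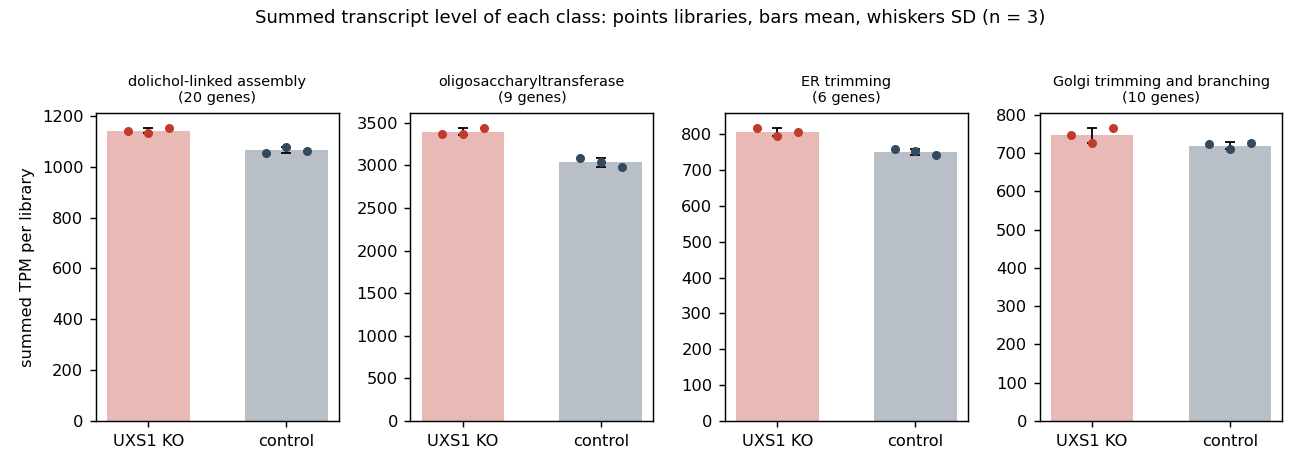
Summed TPM of the members of each class, with points for libraries, bars for the mean and whiskers for the SD (n = 3 each). The UXS1 KO libraries lie above the control libraries in each class, by 11.7% in the mean for oligosaccharyltransferase and by 3.73% for the Golgi class. The Golgi sum rose by about as much as B4GALT1 alone.

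Members that were not called included most of the scarce ones. Of 7 members under 20 CPM in control cells 1 was called, and of 37 at or above it 26 were called. Of all genes tested 48.2% were called. Standard errors of the log2 fold change were 0.0735 to 0.138 in the first set and 0.0336 to 0.076 in the second. The uncalled members of the first set had log2 fold changes from -0.13 (ALG11) to 0.17 (MGAT4A). The part of depth in the missing calls was not tested. Counting without strand could mix reads of overlapping genes. In all, 9 of the tested members shared 10% or more of their exonic length, or of their 50-base stretches, with other genes. They were ALG1, ALG12, DDOST, DPAGT1, DPM2, MPDU1, MPI, OST4 and PMM2. Of the other 35 tested members 19 rose (54.3%) and none fell, against 24.5% and 23.7% of all genes tested. Their median was the same, 0.11. PMM2, the 1 member that fell, was among the 9 left out.

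The balance of paralogs and partners was compared as the ratio of their TPM within a library, which does not depend on scaling between libraries, for 10 pairs. No pair passed the test, since 3 libraries against 3 cannot give an exact two-sided permutation p below 0.1, and 4 pairs reached that value (adjusted p = 0.25 over the 10 pairs). The STT3A to STT3B ratio averaged 0.292 ± 0.00299 in UXS1 KO and 0.320 ± 0.0177 in control (SD, n = 3 each), with no overlap. UGGT1 to UGGT2 stood at 3.53 ± 0.104 in UXS1 KO and 4.04 ± 0.308 in control, and GANAB to PRKCSH at 1.84 ± 0.0211 in UXS1 KO and 2.00 ± 0.042 in control. DPM1 to DPM3 stood at 0.566 ± 0.0266 in UXS1 KO and 0.702 ± 0.0662 in control. These 4 ratios were lower in each UXS1 KO library than in any control library. Such separation was common among single genes, at 26.8% upward and 26.4% downward in TPM. The share among ratios of other gene pairs was not tested, so 4 of 10 pairs is not shown to be unusual. The ratios of TUSC3 to MAGT1, MAN2A1 to MAN2A2, MGAT4A to MGAT4B, ALG6 to ALG8 and ALG13 to ALG14 overlapped between groups, with exact permutation p-values of 0.2 to 0.4, as did that of MAN1A1 to MAN1A2, whose first gene had too few counts to describe.

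**Figure D4:**
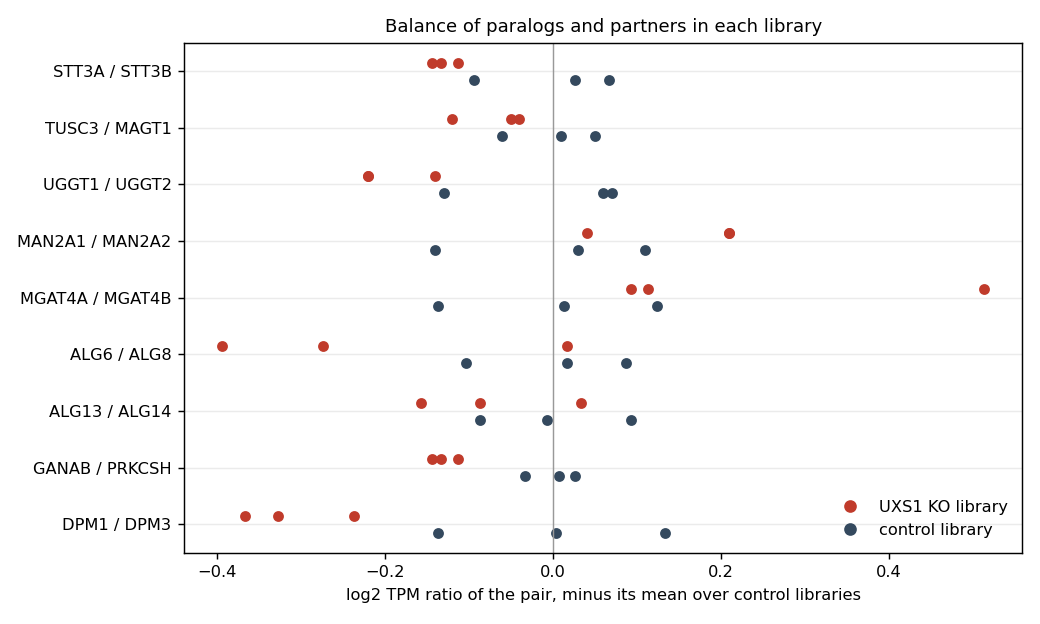
Log2 ratio of the TPM values of 9 pairs in each library, centred on the mean of the control libraries, with UXS1 KO libraries above control libraries in each row. The UXS1 KO points lie to the left of all control points for STT3A to STT3B, UGGT1 to UGGT2, GANAB to PRKCSH and DPM1 to DPM3. Among single genes 26.8% separate upward and 26.4% downward in TPM, and the share among other ratios was not tested. MAN1A1 to MAN1A2 is not drawn because of its low counts.

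Other genes of the pathway were followed on lists that do not include the 45 members. Among all genes tested 24.5% rose and 23.7% fell. Of 10 genes of the calnexin cycle and of mannose recognition in the ER 8 rose (80.0%) and 1 fell, and the median change was 0.29 (log2). MLEC, the lectin malectin that binds glucose-capped chains, rose to 256 ± 5.90 TPM in UXS1 KO, against 169.5 ± 7.81 TPM in control (SD, n = 3 each), by 0.60 (SE 0.037, edgeR adjusted p = 4e-13). The lectin OS9 and the mannosidase-like EDEM1, which act in disposal of misfolded glycoproteins, rose by 0.36 (adjusted p = 7.2e-08) and 0.31 (adjusted p = 6.5e-07). Of 9 further genes of dolichol supply and chain assembly 1 rose (11.1%, below the share of all genes tested) and 2 fell. DOLPP1, a dolichol diphosphate phosphatase, rose by 0.22 (adjusted p = 0.0022), while ALG10 stood at -0.40 (adjusted p = 0.0081) and GMPPB, which makes GDP-mannose, at -0.19 (adjusted p = 0.016). The GMPPB call was lost without UXS1 KO replicate 3 (0.0647) or CTRL replicate 2 (0.133), and under DESeq2 both ALG10 (0.0684) and GMPPB (0.0803) were lost. ALG10 adds the last glucose, and its value is uncertain because 27.3% of its 50-base stretches occur in other genes.
Of 3 further oligosaccharyltransferase subunits OSTC rose by 0.23 (adjusted p = 0.00049), and TMEM258 (0.12, adjusted p = 0.070) and KRTCAP2 (-0.20, adjusted p = 0.21) did not pass. TMEM258 was called higher without CTRL replicate 2 (0.0201), with upper-quartile scaling (0.0307), library size only (0.0444) or a minimum mean of 5 CPM (0.0411), and with the replicate block (0.0423). Of 11 other Golgi enzymes 10 were tested, 3 rose (30.0%, near the 24.5% of all genes tested) and 1 fell. These rises were larger than any among the members: 1.28 for the sialyltransferase ST6GAL1, 0.84 for the mannosidase MAN1C1, at 1.54 TPM in UXS1 KO and 0.861 TPM in control, and 0.42 for the fucosyltransferase FUT8. Over all 33 of these genes 32 were tested, 13 rose (40.6%) and 4 fell, against 24.5% and 23.7% of all genes tested. Without CTRL replicate 2 the number that fell was 2, against 22.1% of all genes tested. The falls besides ALG10 and GMPPB, named after their values were seen, were those of NGLY1, which strips N-glycans from proteins in the cytosol (-0.22, adjusted p = 0.0039), and of the galactosyltransferase B4GALT2 (-0.16, adjusted p = 0.0053).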

How the data were processed

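RNA-seq of 3 UXS1 KO and 3 CTRL cultures was read from the authors' deposited count and TPM tables. Counts are whole-number reads per gene, not normalized, and TPM values are scaled by gene length and library total, per the file headers. STAR, featureCounts, DESeq2 and build hg38 are listed with no role or version, per the submitters' processing notes. Strand use is not given in the sources used here. Each gene's count and TPM implied 1 fixed length for all 19534 genes checked, within 0.01%.

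Counts were filtered (filterByExpr), scaled by TMM (factors 0.987 to 1.01) and tested with edgeR 4.0.16 (R 4.3.3) quasi-likelihood fits of the 6 libraries, with Benjamini-Hochberg adjustment over 15757 genes and a threshold of 0.05. At 21.1 to 22.2 counts per CPM, the biological coefficient of variation was 3.32%. In TPM, groups were compared by non-overlap, and pair ratios by exact two-sided permutation tests. Exonic overlaps and positions come from GENCODE 29, and promoters and their motifs from RefSeq. Alternatives included DESeq2 1.42.0, limma 3.58.1, other scalings and filters, TPM on a log2 scale with a pseudocount of 1 or 0.1, a replicate block and leaving out each library.

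The members and the lists of other genes were chosen with earlier results of these data known. All members are given, with values in every library for up to 5 per class with the smallest adjusted p and for both members of each pair. Of each other list, up to 3 genes with the smallest adjusted p are named.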

Additional observations from a re-analysis of the deposited data

How the results depend on the processing

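Of the 27 member calls, 15 held under all 17 alternatives, and every call was kept under the RLE, upper-quartile and library-size scalings, limma-voom, a minimum mean of 5 CPM and the replicate block. These scalings moved the median log2 fold change of all genes to between -0.004 and 0.021. DESeq2 called 16 of the 44 members higher, 3 of them in assembly, and 2 other pathway genes lower, where it called 18.4% of the same 15757 genes higher, and the cause was not tested. On log2(TPM + 1) with no filter, limma called 18 members higher, 6 in assembly and 2 in the Golgi class, against 16.9% of the same genes, and 0 members and 0 assembly members lower and 1 other pathway gene lower. PMM2, the 1 member that fell, was lost there (adjusted p = 0.0562). Without 1 library, 21 to 22 members and 4 to 8 assembly members were called higher, against 21.5% to 22.9% of the same genes. Called lower were 1 to 2 members, 1 to 2 assembly members, 0 to 1 Golgi members and 2 to 4 other pathway genes, against 20.3% to 22.2%.

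Same-numbered libraries share only a number: their deviations from the group means correlated by 0.0055, 0.0157 and 0.034. With the replicate block, 3 members were called lower, 2 in assembly and 1 in the Golgi class, against 24.7% of all genes tested. The additions were DPM1 (adjusted p = 0.0459) and MGAT4B (0.0312).

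Some uncalled log2 differences near 0 changed sign. With upper-quartile scaling ALG9 was 0.01 and UGGT1 0.02. With library size only UGGT1 was 0.01, and with a minimum mean of 5 CPM ALG9 was 0.002 and UGGT1 0.01. That minimum left ALG11 and MGAT2 untested. A larger difference, in the log2 ratio of MAN1A1 to MAN1A2, also changed sign. The UXS1 KO minus control value was 0.95 on TPM and -0.09 on log2(TPM + 1). Without 1 library the values ranged between -0.02 and 0.05 for DOLK, -0.03 and 0.11 for ALG14, -0.11 and 0.05 for ALG9, -0.14 and 0.02 for ALG6, -0.0049 and 0.05 for DAD1, -0.04 and 0.04 for UGGT1, -0.01 and 0.10 for MAN2A2, and -0.09 and 0.16 for MGAT2. Standard errors were mostly wider for the scarce members, as given above.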
